A study of Mus musculus with 2 samples.

Results

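Solute carriers are the membrane proteins that move nutrients, ions, metals and metabolites across the plasma membrane and the membranes of organelles, and their genes carry symbols made of Slc, a family number and a member letter and number. The genes described here were 139 protein-coding genes of this kind, chosen by their measured level: a TPM (the deposited share of all transcripts, corrected for length) of 1 or more in both libraries. They were drawn from 362 candidate genes, after 9 genes (Slc4a1, Slc11a2, Slc40a1, Slc25a37, Slc25a38, Slc7a1, Slc20a1, Slc20a2 and Slc2a1) had been left out by name from 371, all 9 of which also passed that minimum. In all, 38.4% of the candidates passed the minimum, while 41.6% of the 21474 protein-coding genes did so. The label held in the data with 4 exceptions, Slc9a3r1, Slc9a3r2, Slc7a6os and Slc4a1ap, whose symbols contain that of a carrier but which encode other proteins. They were kept, since the symbol chose them, and are described apart from the carriers.

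The study sequenced polyA RNA with paired ends from leukemia stem cells of adult mice, with 1 group of 2 libraries and no control, untreated or uninfected group. The cells are described as CD34+, CD133+, Kit+ and Sca1+ and as infected with Friend virus, a retrovirus that drives expansion of red cell precursors. Mice of both sexes, 10 to 12 weeks old, were pooled, and only strains with the Fv2 sensitive allele can give such cells; the strain itself is not named. The libraries are called replicate 1 and replicate 2 as in the labels, come from separate biosamples under a single donor record, and hold 23521219 and 22493423 expected counts over genes.

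The sorted surface markers were nearly absent as RNA, while red cell genes were abundant. Cd34, Prom1 (the gene of CD133), Kit and Ly6a (a gene of Sca1) summed to 5.12 TPM in replicate 1 and 3.48 TPM in replicate 2, with 2 of 4 detected in both. The 6 erythroid markers were all detected and summed to 88363 and 153401 TPM. Markers of macrophages (5 of 6 detected, 917 and 1247 TPM), the B lineage (5 of 5, 695 and 292 TPM) and endothelium (3 of 5, 222 and 201 TPM) were also present, and Alb and Ttr had 0 counts in both libraries. The levels below belong to this mixture of RNA, and fewer cells of a type cannot be told apart from less RNA per cell. The part of these other cell types in any carrier's level was not tested.

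As background, carriers of the Slc25 family sit in the inner mitochondrial membrane and exchange phosphate, nucleotides, amino acids and carboxylates with the cytosol. At the cell surface, amino acid exchangers such as the Slc7a5 and Slc3a2 pair, monocarboxylate and hexose carriers, nucleoside carriers and vitamin carriers supply growing cells. Developing red cells have a special demand on transport, because heme synthesis needs glycine, iron and mitochondrial exchange.

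Several of the most abundant carriers owed much of their deposited TPM to short annotated transcripts, and stretches of 3 such transcripts are printed below. The stretches are sequence of the annotation, and whether reads covered the marked bases or junctions was not tested. The deposited TPM of a gene is the sum over its transcripts, each divided by its own effective length (the number of positions where a fragment can start), so that a short transcript gives more TPM per fragment. The sequences are from the GENCODE M21 transcripts on mm10, all on the minus strand, and are printed for 3 of the most abundant genes, in each of which a short transcript without an annotated protein led in at least 1 library. For Slc7a5 the shown stretch is the start of the 618-base Slc7a5-202 (chr8:121883615-121883914), where 146 of 300 bases, in capitals, lie outside the exons of the full-length Slc7a5-201. For Slc25a1 it is an exon of the 460-base Slc25a1-205 (chr16:17927417-17927652), where the 78 capital bases are an intron of Slc25a1-201 that the annotated transcript keeps. For Slc2a8 it is the junction (chr2:32981510-32981750, a span that includes an intron) in Slc2a8-201, whose 28 capital bases are skipped in the 343-base Slc2a8-202.
Slc7a5-202: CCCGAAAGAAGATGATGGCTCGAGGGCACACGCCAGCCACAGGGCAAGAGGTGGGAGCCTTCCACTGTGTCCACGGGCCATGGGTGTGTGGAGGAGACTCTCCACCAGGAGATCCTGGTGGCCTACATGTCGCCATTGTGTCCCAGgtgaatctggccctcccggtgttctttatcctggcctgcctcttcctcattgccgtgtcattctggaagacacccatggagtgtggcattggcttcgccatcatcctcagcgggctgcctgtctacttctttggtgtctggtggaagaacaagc
Slc25a1-205: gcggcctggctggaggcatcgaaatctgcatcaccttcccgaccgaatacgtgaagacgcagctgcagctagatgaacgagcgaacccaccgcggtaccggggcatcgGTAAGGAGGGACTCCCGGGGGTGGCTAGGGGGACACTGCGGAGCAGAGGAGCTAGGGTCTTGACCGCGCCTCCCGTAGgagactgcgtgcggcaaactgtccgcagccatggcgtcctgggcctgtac
Slc2a8-201: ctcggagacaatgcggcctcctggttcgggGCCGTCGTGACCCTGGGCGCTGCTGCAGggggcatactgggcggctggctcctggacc
Slc2a8-202: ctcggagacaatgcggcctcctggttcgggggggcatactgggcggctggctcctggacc

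The level of the carriers as a set was moderate. Their mean TPM over both libraries had a median of 12.9, and that of the 8942 protein-coding genes detected in both was 15.4. Of the 139 members, 11 had a mean of 100 TPM or more (7.91%, against 13.5% of the detected genes), 67 lay between 10 and 100 TPM and 61 below 10 TPM. Together they summed to 6187 TPM in replicate 1 and 3933 TPM in replicate 2, or 0.619% and 0.393% of all TPM. The 10 highest held 48.4% and 45.3% of these sums. The depth behind a member ranged from 60 to 25902 counts over both libraries, with a median of 1011.

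Detection was uneven across the families. Of 45 candidates of the mitochondrial family Slc25, 29 were members, as were 16 of 27 in Slc35 (nucleotide-sugar carriers of the Golgi and endoplasmic reticulum), 8 of 14 in Slc39 (zinc importers), all 3 in Slc41 (magnesium) and all 3 in Slc43. At the other end, none of 13 Slc5 genes (sodium-coupled sugar and vitamin uptake) and none of 5 Slc13 genes were members, and 7 of 25 Slc22 and 3 of 21 Slc6 genes were. In total 37 families had a member, and 10 families with 40 candidates had none. Of the 223 candidates that were not members, 84 had 0 counts in both libraries, 29 reached 1 TPM in replicate 1 alone and 3 in replicate 2 alone.

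Among the genes near the limit, the members just inside were Slc35e3 (1.00 and 2.46 TPM in replicates 1 and 2), Slc25a29 (1.07 and 1.07), Slc41a2 (1.08 and 3.07), Slc18b1 (1.10 and 2.16) and Slc27a1 (1.18 and 2.75 TPM). Just outside were Slc25a18 (0.90 and 1.52 TPM), Slc10a7 (3.01 and 0.85), Slc26a2 (1.30 and 0.85), Slc5a6 (10.3 and 0.84) and Slc25a26 (1.48 and 0.82 TPM). Slc5a6, the sodium-dependent multivitamin carrier, and Slc29a3, a nucleoside carrier of lysosomes with 8.55 and 0.79 TPM, were the only candidates that reached 5 TPM in a library and failed in the other. Slc29a3 had 524 counts against 46, while Slc5a6 had 135 against 54, a smaller gap than its TPM shows. The exchanger chains Slc7a11 (0.18 and 0.29 TPM) and Slc7a6 (0.63 and 0.93 TPM), the zinc importer Slc39a10 (0.53 and 0.49 TPM) and the mitochondrial carrier Slc25a40 (0.82 and 0.38 TPM) were not members.

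**Figure D1:**
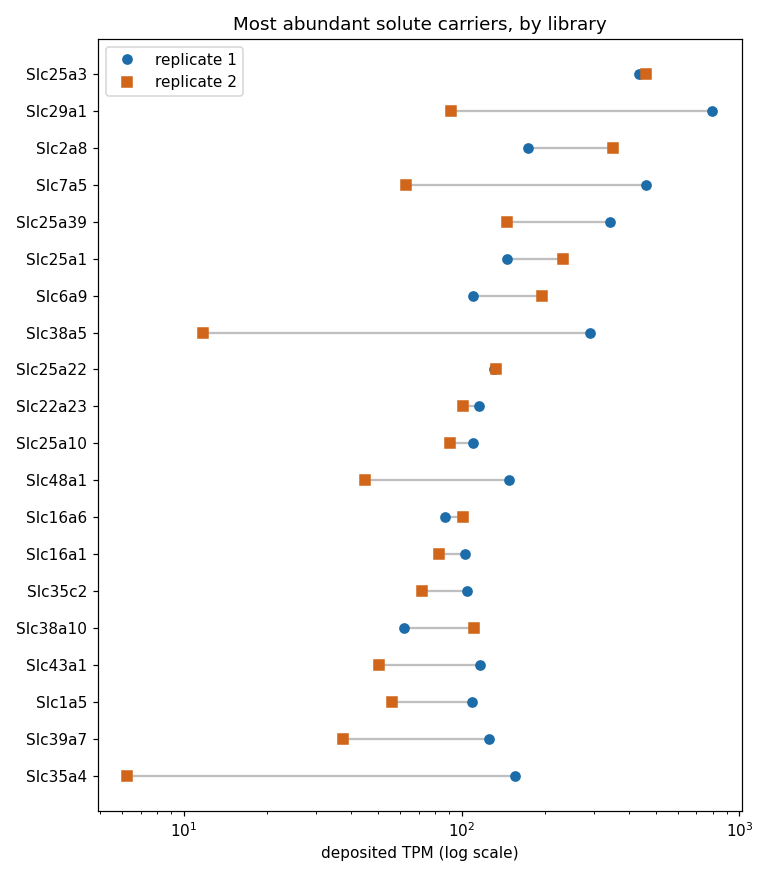
Deposited TPM (log axis) of the 20 carriers with the highest mean, with a circle for replicate 1, a square for replicate 2 and a line between them. Slc25a3 sits near 433 and 459 TPM, while Slc29a1, Slc7a5, Slc38a5 and Slc35a4 span the widest gaps.

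Apart from the 4 genes that encode no carrier, substrate classes were set by the family number in the symbol. A class and its sum can thus include a carrier of another substrate. Mitochondrial carriers formed the largest class by number and by TPM. By expected counts, which are not corrected for length, the amino acid carriers held more, with 27.7% and 29.9% of the carriers' counts in replicates 1 and 2 against 23.2% and 26.1%. The 29 members summed to 1588 TPM in replicate 1 and 1329 TPM in replicate 2, or 25.7% and 33.8% of the carriers' TPM, with a mean of 29.7% ± 5.74 (SD, n = 2). Slc25a3 (chromosome 10, 91116574 to 91124059), the mitochondrial phosphate carrier, ranked first of all members, with 433 TPM in replicate 1 and 459 TPM in replicate 2 (446 ± 18.3, SD, n = 2). It had 12220 and 13682 counts, and Slc25a3-206 led in both libraries with 75.6% and 68.4% of the gene's TPM. Slc25a39, needed for glutathione import into mitochondria, had 341 and 145 TPM, and Slc25a1, the citrate carrier, had 146 and 231 TPM. Both Slc25a22, a glutamate carrier (130.5 and 133 TPM), and Slc25a10, the dicarboxylate carrier (109.9 and 90.7 TPM), were close in the libraries.

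The ADP/ATP carriers, which export ATP from mitochondria, were far below the phosphate carrier. Slc25a5 (chromosome X) had 65.1 TPM in replicate 1 and 12.3 TPM in replicate 2, from 1351 and 239 counts, and Slc25a4 had 29.9 and 9.59 TPM, from 687 and 231 counts. For both genes replicate 1 was the higher library. Slc25a5 shares sequence with 9 annotated pseudogenes. Gm5291 was not among the quantified genes, and the others had 1 count in replicate 1 and 0 in replicate 2 in all. How reads that fit several copies were assigned is not given in the sources used here, so the level of Slc25a5 is uncertain. Slc25a4-202, a retained-intron transcript, held 96.7% and 87.8% of the TPM of Slc25a4, and its protein-coding Slc25a4-201 had 0.98 and 1.17 TPM. Of the other mitochondrial carriers always examined, the oxoglutarate carrier Slc25a11 had 27.6 and 31.2 TPM and the NAD carrier Slc25a51 31.6 and 12.1 TPM. Slc25a28, the second mitoferrin, an iron importer, had 28.3 and 31.8 TPM.

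Amino acid carriers were the next class, with 20 of 68 candidates detected and sums of 1493 and 762 TPM. Slc7a5 (chromosome 8, 121881150 to 121907694), the light chain of the large neutral amino acid exchanger LAT1, had 459 TPM in replicate 1 and 63.2 TPM in replicate 2. Its heavy chain partner Slc3a2 differed little, with 76.0 and 58.8 TPM. The glycine carrier Slc6a9 (chromosome 4) had 110.15 and 194 TPM and was higher in replicate 2. Glycine is a substrate of the first step of heme synthesis. Slc38a5, a glutamine and neutral amino acid carrier, had 290.4 TPM in replicate 1 and 11.8 TPM in replicate 2. Slc1a5, the glutamine exchanger ASCT2, had 109 and 56.2 TPM, Slc43a1 116 and 50.4 TPM, Slc38a1 48.5 and 24.3 TPM and Slc38a2 26.5 and 18.3 TPM. Slc43a3, in this class by its family number but known as a purine nucleobase carrier, had 29.8 and 23.1 TPM. Slc7a8, another light chain, had 18.7 and 19.1 TPM.

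For sugars and monocarboxylates, 13 of 52 candidates were members, with 509 and 655 TPM. Slc2a8, an intracellular hexose carrier, had 173 TPM in replicate 1 and 351 TPM in replicate 2, while Slc2a3, a high-affinity glucose carrier of the cell surface, had 24.1 and 8.66 TPM. Slc16a1 (chromosome 3, 104638668 to 104658462), the lactate and pyruvate carrier MCT1, has a single transcript in the tables and had 103 and 82.7 TPM. Slc16a6 was as high, with 87.2 and 101 TPM, and the lactate exporter Slc16a3 (MCT4) was lower, with 10.2 and 14.6 TPM. Bsg, the partner protein that MCT1 and MCT4 need to reach the membrane, had 1253 and 3545 TPM, with a count ratio of replicate 2 to replicate 1 of 1.92 (log2, 95% interval 1.90 to 1.94). Slc16a1, in contrast, had a log2 ratio of 0.18 (0.13 to 0.22), so the partner and the carrier were not shifted alike between these libraries.

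**Figure D2:**
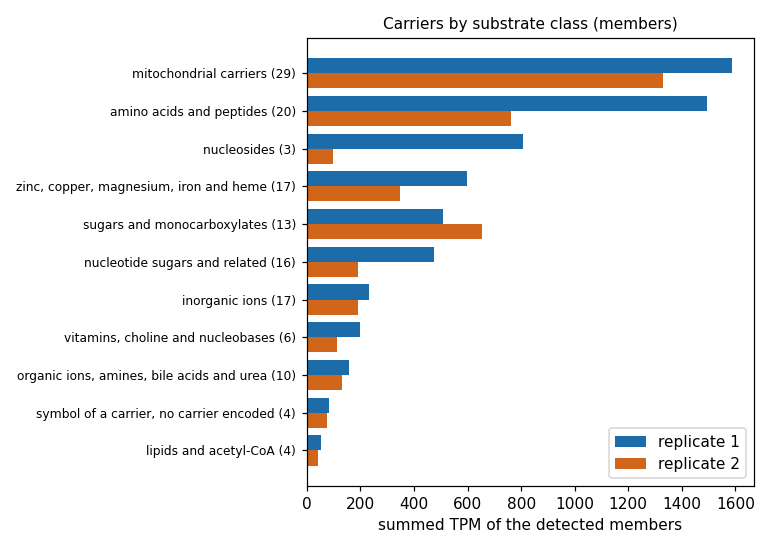
Summed TPM of the members of each substrate class, with a bar for each library and the number of members in brackets. Mitochondrial carriers hold the largest sum in both libraries, and the nucleoside class differs most as a ratio, with 806 TPM in replicate 1 and 95.9 TPM in replicate 2.

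Metal and heme carriers counted 17 members of 31 candidates and summed to 598 and 347 TPM. Slc48a1, which moves heme out of lysosomes, led with 147 TPM in replicate 1 and 44.9 TPM in replicate 2. Slc39a7, the zinc channel of the endoplasmic reticulum, had 126 and 37.5 TPM, and the magnesium carrier Slc41a3 had 104 and 29.9 TPM. Slc11a1, a metal carrier of phagosomes in macrophages, went the other way, with 45.4 and 88.1 TPM, and the summed TPM of the 6 macrophage markers was likewise higher in replicate 2. By counts, though, 2 of the 6 markers were apart with replicate 1 higher and 1 with replicate 2 higher, and Adgre1 had 3.67 and 0.78 TPM. The part of macrophage RNA in its level was not tested. The zinc exporter Slc30a1 had 16.02 and 30.9 TPM, and the importer Slc39a8 had 28.4 and 24.1 TPM.

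A single gene made up most of the nucleoside class. Slc29a1 (chromosome 17, 45585200 to 45599606), the equilibrative nucleoside carrier ENT1, had 798 TPM in replicate 1 and 91.2 TPM in replicate 2 and held nearly all of its class, since Slc29a4 had 3.62 and 2.85 TPM and Slc29a2 had 3.96 and 1.81 TPM. The reduced folate carrier Slc19a1 had 97.4 and 45.02 TPM, the thiamine carrier Slc19a2 45.7 and 37.6 TPM and the riboflavin carrier Slc52a2 38.7 and 13.1 TPM. In the Slc35 family, Slc35c2 had 104 and 71.8 TPM, the UDP-galactose carrier Slc35a2 had 32.8 and 20.2 TPM and the CMP-sialic acid carrier Slc35a1 had 7.82 and 5.86 TPM. Slc35a4 had 155 TPM in replicate 1 and only 6.26 TPM in replicate 2.

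The 17 carriers of inorganic ions summed to 233 and 189.8 TPM. Among them, the anion exchanger Slc4a2 had 32.4 and 31.8 TPM, the potassium-chloride cotransporter Slc12a4 34.6 and 28.7 TPM and Slc9a8 27.1 and 5.93 TPM. Slc4a2 and Slc12a4 were near equal in both libraries. Slc4a2 shares 1141 exon bases with Fastk on the opposite strand, which had 5754 and 3641 counts, and whether strand was used in counting is not stated. Slc22a23 led the organic ion class with 115 and 101 TPM, above the ergothioneine carrier Slc22a4 (16.2 and 9.73 TPM), the carnitine carrier Slc22a5 (6.97 and 5.83 TPM) and the urea carrier Slc14a1 (6.30 and 3.58 TPM). The acetyl-CoA carrier Slc33a1 had 38.9 and 32.6 TPM. The 4 genes that encode no carrier lay between a mean of 3.54 TPM for Slc9a3r2 and 33.03 TPM for Slc9a3r1.

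Both libraries ordered the carriers much alike. Across the 139 members, which share the libraries' depth and composition, Spearman's rho between the libraries was 0.884 for TPM and 0.900 for counts, as a description without a test. Across all detected protein-coding genes rho was 0.877, so a like order was not particular to the carriers. TPM was higher in replicate 1 for 99 members, higher in replicate 2 for 39 and equal for 1. Over all detected protein-coding genes, 63.1% had the higher TPM in replicate 1, against 71.2% of the members. The median log2 ratio of TPM (replicate 2 over replicate 1) was −0.42 for members and −0.31 for all detected protein-coding genes. After TMM scaling of the counts, which sets the bulk of genes near equal, the medians were −0.02 and 0.08.

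**Figure D3:**
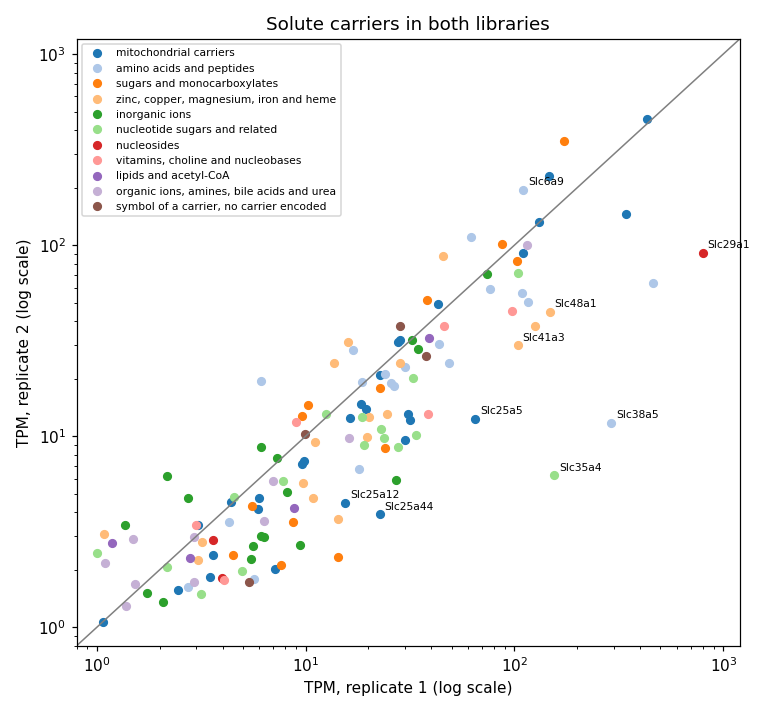
TPM of the 139 members in replicate 1 (horizontal, log axis) and replicate 2 (vertical, log axis), coloured by substrate class, with the line of equal levels. Most points lie near or under the line, and Slc38a5, Slc35a4 and Slc29a1 lie farthest below it.

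With 1 group of 2 libraries no test between conditions exists, so the libraries were compared gene by gene as 2 libraries. A gene was called apart where the whole exact binomial 95% interval of its TMM-scaled count ratio lay beyond 2-fold; the interval covers counting error only. By this measure 13 of 139 members (9.35%) were higher in replicate 1, while 11.3% of all detected protein-coding genes were. Higher in replicate 2 were 7 members (5.04%), while 9.76% of all were. The remaining 119 were not apart. Neither share stood above that of all genes with this scaling. With total-count scaling 21.6% of members and 19.6% of all genes were higher in replicate 1, and in deposited TPM 22.3% and 20.6% were, so the order of the shares turned; in replicate 2 the members' share stayed the lower one (0.719% and 3.21%, then 2.16% and 4.05%).

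Of the 13 members higher in replicate 1, Slc35a4 was the extreme, with 6902 counts against 316, a 15.5-fold ratio after scaling (log2 ratio −3.96, interval −4.12 to −3.79). Slc25a44, a mitochondrial carrier of branched-chain amino acids, had 1535 and 254 counts (−2.10), and Slc25a5 had 1351 and 239, a 4.01-fold ratio. Among the others were the aspartate-glutamate carrier Slc25a12 (−1.80), Slc38a5 (−1.77), the insulin-responsive glucose carrier Slc2a4 (−1.74) and Slc29a1 (−1.61). Slc9a8, Slc16a13, Slc45a3, Slc41a3 and Slc48a1 lay between −1.49 and −1.22. Of these 13, 11 were also apart in the same direction with DESeq2 size factors, total-count scaling and deposited TPM. Slc16a13, in contrast, was not apart in deposited TPM.

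The 7 members higher in replicate 2 were mostly scarce. Slc41a2 had 14 and 46 counts (log2 ratio 2.17, interval 1.32 to 3.19), and Slc12a2, the sodium-potassium-chloride cotransporter NKCC1, had 173 and 437 (1.83). Slc18b1 (1.82), Slc35e3 (1.79), the fatty acid carrier Slc27a1 (1.71) and Slc9a7 (1.70) had at most 163 counts in a library. Slc6a9 was the exception, with 6671 and 12218 counts (1.36, interval 1.32 to 1.41). Only Slc12a2 was apart under all 3 other scalings, and Slc6a9 was not apart in deposited TPM (0.82) or with total-count scaling (0.94). In all scalings these 7 kept the higher value in replicate 2.

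The ratio of a member depended on whether counts or TPM were read. Effective length differed by more than 1.5-fold between the libraries in 20 members (14.4%, against 12.1% of all detected protein-coding genes), with 14 longer in replicate 1 and 6 longer in replicate 2. In the other 119 members the TPM ratio lay between 0.94 below and 0.07 above the count ratio on the log2 scale, with a median difference of −0.49. These counts are TMM-scaled and the TPM is not, so each difference includes the scaling. With total-count scaling the median log2 ratio of all members was −0.45, against −0.42 in TPM. Among the 20, 3 pointed in opposite directions: Slc41a1 (count log2 ratio 0.24, TPM −1.95), Slc15a3 (0.85 and −0.44) and Slc43a2 (−0.02 and 0.76), genes that were named after their values had been seen. Opposite directions were not particular to the 20. Among the other 119, Slc16a1 (0.18 and −0.32), Slc3a2 (0.13 and −0.37) and Slc25a10 (0.22 and −0.28) were examples. With total-count scaling their ratios were −0.25, −0.30 and −0.21, of the same sign as in TPM. Of all members, 67 had a TMM-scaled count log2 ratio above 0, while 39 had the higher TPM in replicate 2. Of the 10 members with the highest TPM, 5 were among the 20.

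**Figure D4:**
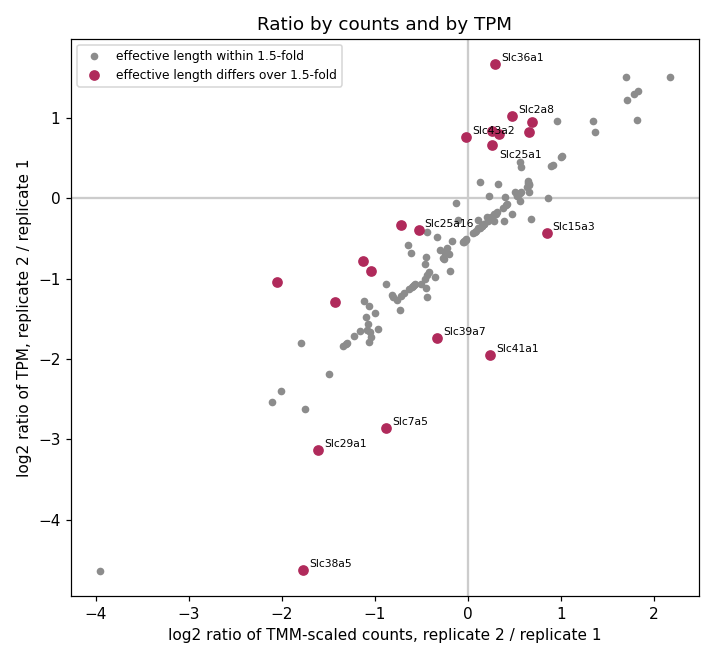
Log2 ratio of replicate 2 to replicate 1 for each of the 139 members, from TMM-scaled counts (horizontal) and from deposited TPM (vertical); the 20 members whose effective length differs by more than 1.5-fold are drawn larger and coloured, and the more abundant of these are named. The other 119 follow a narrow diagonal, while Slc38a5, Slc29a1 and Slc7a5 lie far below it.

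Slc38a5 shows the size of this. It had 1947 counts in replicate 1 and 405 in replicate 2, a 3.42-fold difference after TMM scaling, while its TPM differed 24.7-fold. With total-count scaling its log2 ratio was −2.20, against −4.62 in TPM. In replicate 1 the 360-base Slc38a5-204, annotated as protein-coding, took 1210 counts and 92.7% of the TPM, and in replicate 2 it was listed at 0. The 1868-base Slc38a5-201 had 16.1 and 11.2 TPM, close in both libraries. The effective length of the gene was 339 bases in replicate 1 and 1733 bases in replicate 2.

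Slc7a5 followed the same pattern. It had 10878 and 4206 counts, and its log2 ratio was −0.88 (−0.93 to −0.83) by TMM-scaled counts, which did not set it apart, and −2.86 by TPM. With total-count scaling it was apart, at −1.31 (−1.36 to −1.25). The retained-intron transcript Slc7a5-202, whose start is printed above, took 75.4% of the TPM in replicate 1 and 0.78% in replicate 2. The full-length Slc7a5-201 had 113 and 62.7 TPM. Slc29a1 had 6931 and 1614 counts, and in replicate 1 the 357-base Slc29a1-216 (52.6%) and the 348-base Slc29a1-220 (26.6%) made up most of its 798 TPM. In replicate 2 Slc29a1-216 was listed at 0 and Slc29a1-220 held 42.5%.

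For Slc2a8 and Slc25a1 the short transcripts were heavier in replicate 2. Slc2a8 had nearly equal counts, 2898 and 2870, while Slc2a8-202, which skips the 28 bases shown above, held 50.8% of the TPM in replicate 1 and 75.8% in replicate 2. The full-length Slc2a8-201 had 43.5 and 4.50 TPM. Slc25a1 had 4373 and 3711 counts, and Slc25a1-205, with its kept intron, held 1.70% and 51.3% of the TPM. Slc25a1-201 had 142 and 91.4 TPM, which makes replicate 1 the higher library for the full-length transcript and replicate 2 the higher one for the gene.

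**Figure D5:**
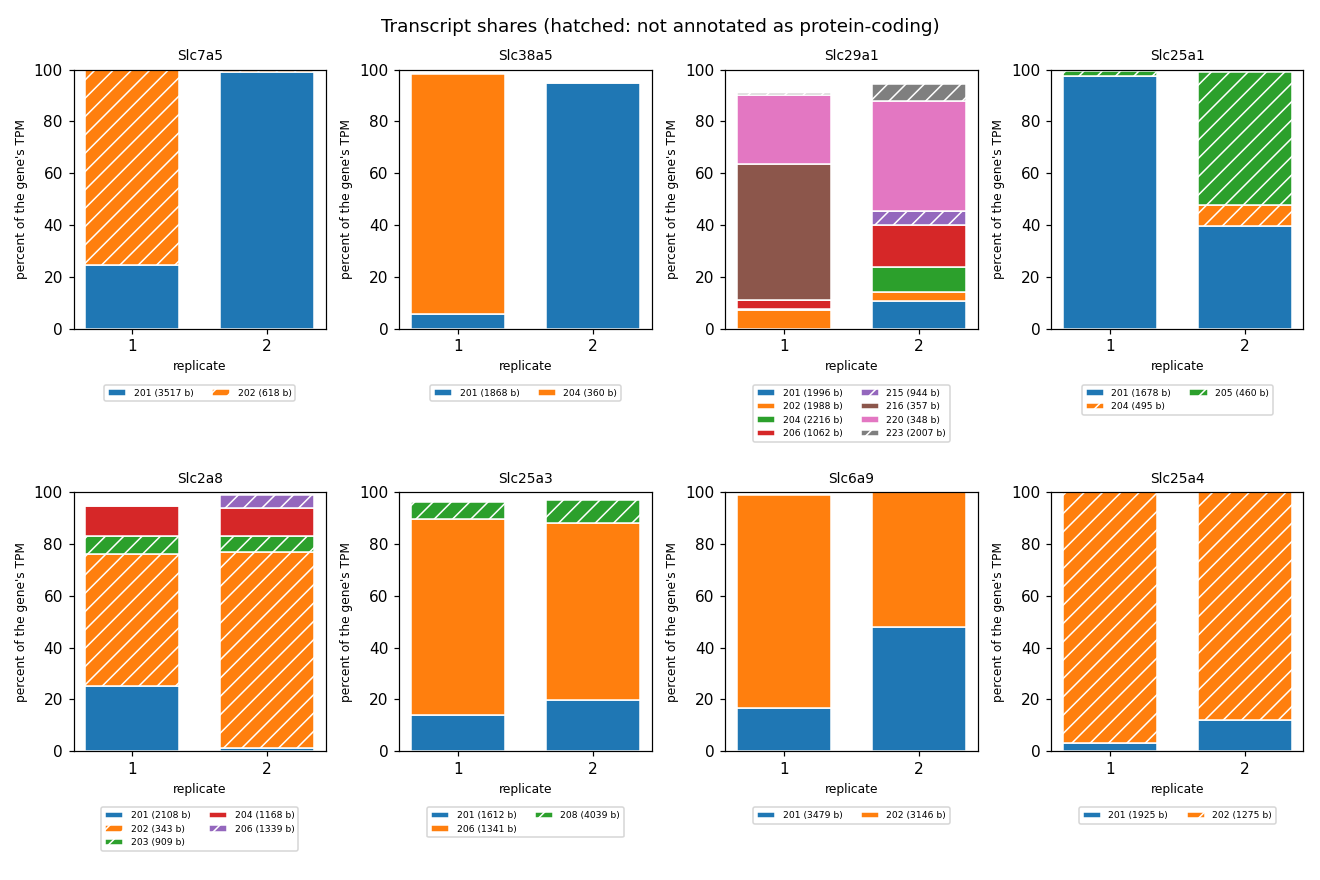
Share of a gene's TPM (percent, vertical) held by its transcripts in replicates 1 and 2 for 8 carriers, with transcript number and length in the keys and hatching for transcripts not annotated as protein-coding; minor transcripts are not drawn. The leading transcript changes between libraries in Slc7a5, Slc38a5, Slc29a1 and Slc25a1 and stays the same in Slc2a8, Slc25a3, Slc6a9 and Slc25a4.

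A change of leading transcript was common. Of 108 members with more than 1 transcript in the tables, 70 were led by 1 transcript throughout and 38 (35.2%) by different transcripts in the libraries, against 30.1% of all such detected genes. The leading transcript was not annotated as protein-coding in at least 1 library in 36 members (33.3%, against 34.2% of all such genes) and in both libraries in 22. No share over all such genes was computed for the 22, nor for the counts at a mean of 10 TPM or more that follow. They describe the members alone. At a mean of 10 TPM or more, 66 members had more than 1 transcript, and the lead differed in 21. In 12 of these 66 a single transcript that is not protein-coding led both libraries: Slc2a8, Slc25a22, Slc22a23, Slc35c2, Slc11a1, Slc25a11, Slc39a8, Slc15a4, Slc35f6, Slc25a4, Slc39a6 and Slc38a7. Slc22a23-204, of 786 bases and marked for nonsense-mediated decay, held 75.2% and 79.7% of the TPM of Slc22a23, and Slc35f6-202, of the same kind, 90.3% and 83.2%. Slc25a39 changed between coding fragments, from the 679-base Slc25a39-206 with 34.3% in replicate 1 to the 728-base Slc25a39-205 with 64.7% in replicate 2. The full-length Slc38a10-201 went from 85.8% to 30.5% of Slc38a10, and Slc39a7 from the coding Slc39a7-205 (63.9%) to the retained-intron Slc39a7-204 (53.0%).

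A level that leaves the split between transcripts out was computed after the values had been seen: CPM (each gene's counts scaled to the library's gene counts) per kilobase of the longest protein-coding transcript. By this measure 7 of the 10 highest members were the same. Slc25a3 remained first, with 322 in replicate 1 and 377 in replicate 2. Slc6a9 moved from rank 7 to rank 2, with 81.5 and 156. The next 4 were Slc25a39 (158 and 67.3), Slc25a1 (111 and 98.3), Slc7a5 (131 and 53.2) and Slc29a1 (133 and 32.4). Slc2a8 moved from rank 3 to rank 12, Slc38a5 from rank 8 to rank 27 and Slc22a23 from rank 10 to rank 37. The nucleoside class, which held 13.0% of the carriers' TPM in replicate 1 and 2.44% in replicate 2, held 4.48% and 1.64% of this level. Mitochondrial carriers held 33.1% and 38.6% of it.

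Some members stand close to other carriers in the genome or share sequence with them. Pairs within 50 kb were Slc22a21 and Slc22a4 (2.79 kb apart), Slc25a29 and Slc25a47 (0.162 kb), Slc38a1 and Slc38a2 (44.5 kb) and Slc35b2 and Slc29a1 (17.5 kb). Slc38a1 and Slc38a2 had count log2 ratios of −0.46 and −0.04, and Slc35b2 had −0.05 beside the −1.61 of its neighbour Slc29a1. Counts were not whole numbers, as they can be where reads are shared between genes, in 5 members: Slc39a7, Slc22a5, Slc22a21, Slc6a20a and Slc10a3. Slc22a5 and Slc22a21 share 1250 words of 25 bases, so the split of 183 and 94.9 counts between them in replicate 1 is uncertain.

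The promoters of the members were searched for a few short motifs on both strands in 141 windows of 250 bases before the start, which RefSeq gave for 106 of the genes on GRCm38.p6. The GC box GGGCGG was in 63.8% of the members' windows, in 60.4% of the windows of detected genes and in 32.7% of all 32851 windows. The E-box CACGTG was in 14.2%, 8.68% and 6.02% of them, and in at least a single window of 20 member genes. The GATA motif AGATAA was in 6.38%, 5.37% and 9.99%, CCAAT in 34.8%, 34.9% and 33.8% and TGATGNAA in 2.13%, 1.84% and 3.45%. A match is a match of letters and not a bound site. Slc25a1 (chr16:17928220-17928469, minus strand) and Slc16a1 (chr3:104638414-104638663, plus strand), both abundant and not apart between the libraries, hold the E-box and are printed, with motif matches in capitals; a match is one of the 5 motifs or its reverse complement.
Slc25a1: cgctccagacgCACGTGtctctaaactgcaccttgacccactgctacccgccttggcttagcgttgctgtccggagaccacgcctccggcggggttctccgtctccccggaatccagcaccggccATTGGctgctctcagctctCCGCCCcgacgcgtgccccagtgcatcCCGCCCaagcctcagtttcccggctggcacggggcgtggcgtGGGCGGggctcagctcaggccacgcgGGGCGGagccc
Slc16a1: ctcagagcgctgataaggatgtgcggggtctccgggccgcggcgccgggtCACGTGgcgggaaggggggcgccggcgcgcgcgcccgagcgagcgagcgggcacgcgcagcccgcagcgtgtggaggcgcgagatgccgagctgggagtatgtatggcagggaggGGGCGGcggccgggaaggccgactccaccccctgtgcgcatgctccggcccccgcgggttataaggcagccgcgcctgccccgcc

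Transport genes with other names were compared from lists. Of 31 carriers of these families with other symbols, 22 were detected in both libraries, led by the mitochondrial uncoupling protein gene Ucp2 with 784 and 834 TPM, above every member's mean. Mfsd2b, the sphingosine-1-phosphate exporter of red cells, had 230.2 and 143 TPM. By the 2-fold criterion, the ammonia channel gene Rhag (log2 ratio −1.22) and the lysosomal cystine exporter Ctns (−1.53) were higher in replicate 1, and Mpc2, a subunit of the mitochondrial pyruvate carrier (1.54), in replicate 2. In TPM, however, Mpc2 had 49.0 and 58.5, a log2 ratio of 0.26, and its partner subunit Mpc1 had 23.2 and 8.01 TPM, with a count log2 ratio of −1.08 that was not apart. All 7 ABC transporters listed were detected, and 2 were higher in replicate 1, among them Abcg2, with 326 and 71 counts (log2 ratio −1.70). Of 8 partner and pump subunits, 7 were detected, and the sodium pump chain Atp1b3 had 196 and 175 TPM.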

How the data were processed

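The 2 polyA RNA-seq libraries each had a gene and a transcript table on mm10 with GENCODE M4 models, per the accompanying readme; aligner and counting program: not given in the sources used here. Each row has the authors' expected count, an estimate of its fragments. The deposited TPM and FPKM are the authors' length-normalised values, and the deposited percent is a transcript's share of its gene's TPM.

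Symbols, gene types and transcript names came from GENCODE M21 (mm10), to which 42462 of 69691 rows matched. The 139 members and all lists and classes were chosen with earlier results of these data known. Slc4a1ap was moved to the genes that encode no carrier after the members had been listed. Members were named by rule: a fixed list of 30 carriers, the 10 highest by TPM, up to 4 per substrate class, the 8 largest ratios in each direction, 5 genes on each side of the limit, leading transcripts that are not protein-coding, the largest changes of leading transcript and neighbours within 50 kb. Other names were chosen after values had been seen, and a few genes covered by the rule are left unreported.

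Expected counts were rounded and TMM-scaled in edgeR 4.0.16 (R 4.3.3); DESeq2 1.42.0 gave other size factors. Genes with 20 or more counts entered the ratio, with a prior count of 0.5. The effective library sizes rest on TMM factors of 1.16 and 0.862. A single group allows no p-value, and nothing says that the libraries came from separate animals, so their spread may be partly technical. Repeated sequence was found as 30 or more shared words of 25 bases. Other scalings, minimums, units and single libraries were tried. Tables and figures were made with matplotlib 3.10.9, scipy 1.17.1, pandas 2.3.3 and numpy 2.4.6 under Python 3.11.15.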

Additional observations from a re-analysis of the deposited data

How the results depend on the processing

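The number of detected carriers went from 139 to 85 with a minimum of 5 TPM, and lay between 118 and 167 with minimums of 2 and 0.5 TPM, FPKM or posterior mean TPM; with single libraries it was 142 to 168. The median level, 3.76 as log2(TPM + 1), was 3.02 with counts over the longest protein-coding transcript, an alternative chosen after seeing the data, and 3.40 to 4.09 in single libraries. The scaling mattered most to the ratios. Total-count scaling moved the median log2 ratio of all detected genes from 0.08 to −0.35 and deposited TPM moved it to −0.31; the carriers' median went from −0.02 to −0.45 and −0.42. The 13 carriers higher in replicate 1 became 30 with total counts and 31 with TPM, and the 7 higher in replicate 2 became 1 and 3. Over all 8938 genes the 1006 higher in replicate 1 likewise became 1748 and 1837, and the 872 higher in replicate 2 became 287 and 362. DESeq2 size factors gave 13 and 7, as did count minimums of 50 and none. The mitochondrial share was 29.7% by TPM, 25.7% to 33.8% in single libraries, 24.7% by expected counts (where amino acid carriers held more), and 35.8% with counts over the longest protein-coding transcript, the largest move. The count of carriers with an unchanged leading transcript was 72 with posterior mean shares and 53 of 80 at 5 TPM or more. A comparison of the libraries has no value with a library left out. A move of the median ratio under 0.1 counted as none. No paired analysis was possible because there was 1 group. Depth limits the scarce members: Slc41a2 had 60 counts in all.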
